A study of Mus musculus with 8 samples.

Results

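Stra8, Zscan4d, Sox11 and Trh are genes that mark rare states of embryonic stem cell cultures, and they were chosen by their input values, that is, because their mRNA level differed between Dis3l2 genotypes. They are 4 of the 8125 genes in the table analysed. The tested cells were TC1 mouse embryonic stem cells (ESCs) of genotype Dis3l2 -/-, made with CRISPR/Cas9 and called knockout (KO) here. Dis3l2 is an exoribonuclease that degrades uridylated RNA. The control cells were Dis3l2 +/-, so that they carried 1 disrupted allele and were not wild type. All cultures were undifferentiated and grew without feeder cells on gelatin in LIF and serum. Each genotype had 2 input libraries, which measure mRNA, and 2 RPF libraries. RPFs (ribosome-protected fragments) are what nuclease leaves of an mRNA under ribosomes that cycloheximide has stopped. The 8 libraries thus fell into 4 groups of 2. The number of ESC clones behind each genotype is not given in the sources used here, so clone and genotype cannot be told apart.

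The genes stand for different programmes. Stra8 is induced by retinoic acid in germ cells and is needed for entry into meiosis. In ESCs it is held down with other germline genes by the PRC1.6 complex, in which MGA and MAX take part. Zscan4d belongs to the Zscan4 cluster, which is active in the mouse embryo at the 2-cell stage and in the small fraction of ESCs that passes through a 2-cell-like state, where it takes part in telomere maintenance. Sox11 encodes a SoxC transcription factor of neural progenitors and early neurons. Trh encodes the precursor of thyrotropin-releasing hormone, a hypothalamic peptide that is cut out of a secreted prohormone, and its mRNA is also found in ESC cultures.

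Values are called normalised values here. They were read numbers scaled by library alone, without a division by the length of the gene. The input libraries held 9043982 and 33609787 reads in KO cells, against 8585206 and 8382211 in control cells. The RPF libraries were far shallower, with 268255 and 140163 reads in KO cells and 558962 and 1126782 in control cells. A single RPF read thus counted for 8.22 and 15.6 normalised units in KO cells, against 3.94 and 1.94 in control cells. The median RPF reads of a gene were 14 and 7 in KO cells and 28 and 55 in control cells. No gene of the table was without a read in any library. The targeted gene was not analysed here, so genotypes rest on the column names. The sign of the study's own fold change column was opposite to the KO over control change of RPF over input in these columns. This held for 7533 of the 8125 genes and for 4 of the 4 genes described here. All changes below are KO over control by the column names.

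Input chose the genes, so their input changes are a description without a test. Stra8 had input values of 186 and 195 in KO cells, against 98.1 and 101 in control cells. Both KO libraries lay above both control libraries, and the distance between the groups was 9.50 times the wider of the ranges within a group. The means were 191 ± 6.33 in KO cells and 99.7 ± 2.25 in control cells (SD, n = 2 each), a ratio of 1.91. These values came from 795 and 3101 reads in KO cells and from 402 and 405 in control cells, so that counting error was small. On the scale of log2 of the value plus 10, used below for changes in input and RPF unless another tool or pseudocount is named, Stra8 changed by 0.87 (SE 0.07). Of the 7946 genes tested in input, it had the second largest increase.

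Zscan4d had input values of 83.4 and 68.9 in KO cells, against 137 and 110 in control cells. The groups did not overlap, but the gap between them was only 1.02 times the range of the control libraries, the widest spread of the 4 genes. The means were 76.1 ± 10.3 in KO cells and 123 ± 18.6 in control cells, a ratio of 0.617. The log2 change was -0.63 (SE 0.11).

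Sox11 had input values of 21.1 and 21.7 in KO cells, against 36.1 and 38.5 in control cells, from 90 and 345 reads in KO cells and 148 and 154 in control cells. The KO libraries lay below the control libraries, and the replicates of each genotype were close to each other. The means were 21.4 ± 0.447 in KO cells and 37.3 ± 1.70 in control cells, a ratio of 0.574. The log2 change was -0.59 (SE 0.10), where the pseudocount weighs on so low a gene. The log2 ratio of the means without a pseudocount was -0.80.

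Trh had input values of 220 and 210 in KO cells, against 302 and 307 in control cells. Again both KO libraries were below both control libraries. The means were 215 ± 7.54 in KO cells and 304 ± 3.18 in control cells, a ratio of 0.707 and a log2 change of -0.48 (SE 0.07). Among the decreases in input, Zscan4d had the second largest, Sox11 the third and Trh the eighth.

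**Figure D1:**
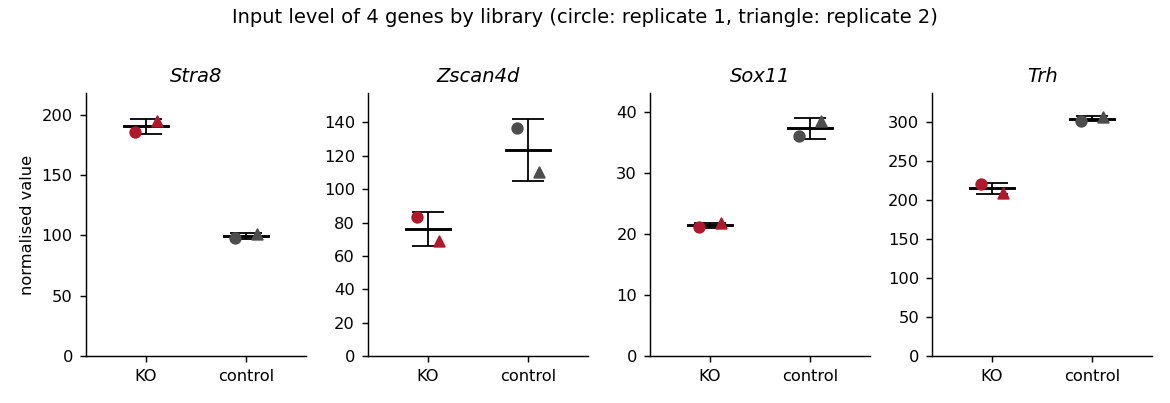
Input level of Stra8, Zscan4d, Sox11 and Trh as normalised values, with KO left of control in each panel. Points are the 2 libraries of a genotype, and lines are the mean ± SD. Stra8 is higher in KO cells and the other genes are lower, with no overlap between genotypes in any panel.

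Over all genes, 27 of 7946 passed an adjusted p of 0.05 in input (limma, Benjamini-Hochberg), which is 0.34% of the genes tested. Of these, 19 were higher in KO cells (0.239%) and 8 were lower (0.101%). Groups that do not overlap were common, at 44% of all tested genes in input (22.9% with KO above control and 21.1% with KO below). Since input chose Stra8, Zscan4d, Sox11 and Trh, nothing is read from their place among these counts. The last genes inside the threshold were Fbxo15, with a log2 change of -0.34, and Impact, with 0.44. The first outside it were Enpp3, with -0.39, and Krt8, with 0.52. In these bulk libraries a change in the number of cells in a rare state and a change in mRNA per cell cannot be told apart.

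RPF libraries did not enter the choice of the genes. A mean RPF value of at least 50 was required for a test, which Stra8 and Trh reached and Zscan4d and Sox11 did not. Neither of the 2 genes tested passed, against a background of 39 of 6260 genes (0.623%, with 0.335% higher and 0.288% lower in KO cells). Over all genes tested in RPF, the genotypes did not overlap for 42.4% (21.6% with KO above control and 20.8% with KO below).

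Stra8 had RPF values of 82.2 and 140 in KO cells, against 51.2 and 105 in control cells. The groups overlapped, and the values rested on 10 and 9 reads in KO cells and on 13 and 54 in control cells. The means were 111 ± 40.9 in KO cells and 78.0 ± 37.8 in control cells (SD, n = 2 each). The log2 change was 0.49 (SE 0.49, adjusted p = 0.759, limma). Its 95% interval ran from -0.56 to 1.53, or from 0.680-fold to 2.89-fold. The interval holds no change as well as the increase of 0.87 seen in input. As reads summed over the libraries of a genotype, Stra8 had 19 of 408418 in KO cells and 67 of 1685744 in control cells. The ratio of these shares was 1.17, with an exact 95% interval of 0.664 to 1.97 that covers counting error only.

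Trh was the best covered of the genes in RPF, with 53 and 23 reads in KO cells and 107 and 279 in control cells. Its RPF values were 435 and 358 in KO cells, against 421 and 541 in control cells. KO replicate 1 lay above control replicate 1, so that the groups overlapped. The means were 397 ± 55.0 in KO cells and 481 ± 84.6 in control cells. The log2 change was -0.27 (SE 0.25, adjusted p = 0.745, limma). Its interval of -0.81 to 0.27 holds both 0 and the input change of -0.48.

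Zscan4d had RPF values of 32.9 and 15.6 in KO cells, against 23.6 and 46.5 in control cells. The groups overlapped, and the KO values stood for 4 reads and 1 read, against 6 and 24 reads in control cells. The means were 24.2 ± 12.2 in KO cells and 35.1 ± 16.2 in control cells. The share of reads in KO cells was 0.688 of that in control cells, with an exact 95% interval of 0.208 to 1.79. No difference was detectable at this depth.

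Sox11 had RPF values of 8.22 and 15.6 in KO cells, against 43.3 and 54.3 in control cells. It was the only gene of the 4 whose RPF values did not overlap between genotypes. Both KO values stood for a single read, the lowest count that any listed gene had in these libraries, while control cells had 11 and 28 reads. The means were 11.9 ± 5.19 in KO cells and 48.8 ± 7.76 in control cells, a ratio of 0.243. At the share of reads seen in control cells, 9.45 reads were to be expected in the KO libraries together, and 2 were found. The ratio of the shares was 0.212, with an exact 95% interval of 0.0248 to 0.818, which holds the ratio of 0.573 that the input reads gave. This interval covers counting error within these libraries and not the spread between cultures. Without the filter on low values, limma gave a log2 change of -1.44 with an adjusted p = 0.374, and edgeR on the reads gave -2.16 with an adjusted p = 0.323. The share of all tested genes with KO below control in this way was 20.8%.

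**Figure D2:**
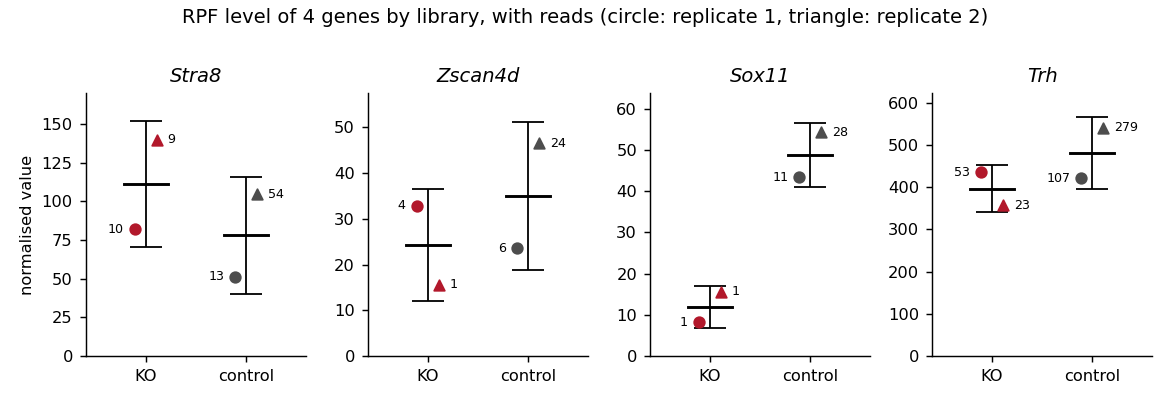
RPF level of Stra8, Zscan4d, Sox11 and Trh as normalised values, with KO left of control. Points are the 2 libraries of a genotype with their number of reads beside them, and lines are the mean ± SD. Sox11 alone shows no overlap, and each of its KO points is 1 read.

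Per kilobase of coding sequence, which allows levels of different genes to be set side by side, the order of RPF levels was Trh, Stra8, Zscan4d and Sox11 in KO cells, and Trh, Stra8, Sox11 and Zscan4d in control cells. Trh had 516 ± 71.6 RPF units per kilobase in KO cells and 627 ± 110 in control cells, above 90.5% of the genes in KO cells and 92.2% in control cells. Stra8 had 94.2 ± 34.7 in KO cells and 66.1 ± 32.1 in control cells. Both lay near the median of 8121 genes, which was 75.2 in KO cells and 74.9 in control cells. Sox11 had 10.03 ± 4.38 in KO cells, above only 4.37% of the genes, and 41.2 ± 6.55 in control cells, above 32.6%. Zscan4d had 15.9 ± 8.07 in KO cells and 23.1 ± 10.7 in control cells. Neighbours in this order overlapped between Sox11 and Zscan4d in KO cells, and between Stra8 and Sox11 in control cells, where Stra8 had 43.4 and 88.8 per kilobase and Sox11 had 36.6 and 45.8.

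RPF over input, the measure that the study calls translation efficiency (TE), also contains the input on which the genes were chosen, so it is described and not tested. Each RPF library was divided by the input library of its genotype and number. This match is by number alone, since deviations of same-numbered input and RPF libraries correlated at only 0.005 in KO cells and 0.02 in control cells. The single ratios and their SDs depend on it. Stra8 had ratios of 0.441 and 0.717 in KO cells, against 0.522 and 1.03 in control cells. Trh had 1.98 and 1.70 in KO cells, against 1.40 and 1.76 in control cells. Zscan4d had 0.394 and 0.226 in KO cells, against 0.173 and 0.422 in control cells. For these genes the genotypes overlapped.

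Sox11 had ratios of 0.390 and 0.716 in KO cells, against 1.20 and 1.41 in control cells. The means were 0.553 ± 0.231 in KO cells and 1.30 ± 0.149 in control cells, again from 1 read in each KO RPF library. Over 6240 genes the ratios did not overlap for 41.8%, with both KO ratios above both control ratios for 21% and below for 20.8%. The other means were 0.579 ± 0.195 in KO cells and 0.778 ± 0.362 in control cells for Stra8, 0.310 ± 0.119 in KO cells and 0.298 ± 0.176 in control cells for Zscan4d, and 1.84 ± 0.191 in KO cells and 1.58 ± 0.262 in control cells for Trh.

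**Figure D3:**
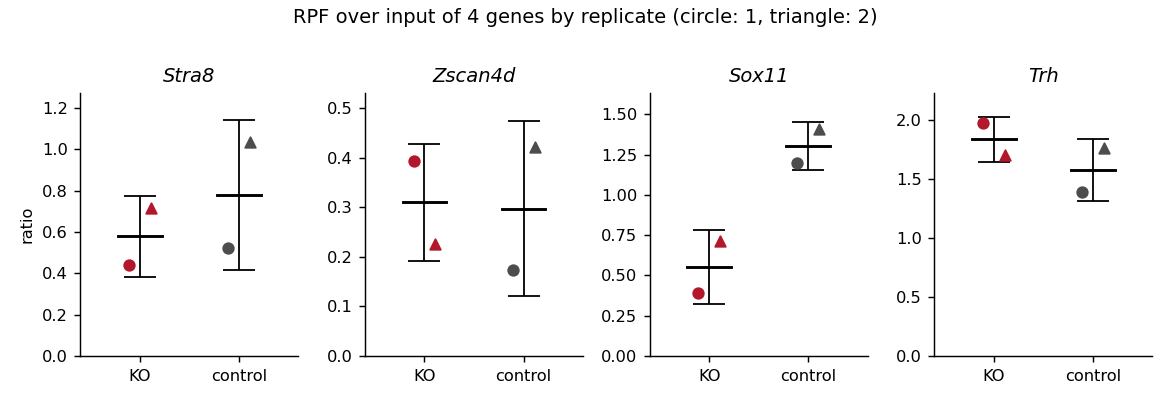
RPF over input of Stra8, Zscan4d, Sox11 and Trh, with KO left of control. Points are the ratios of same-numbered libraries, and lines are the mean ± SD. Sox11 is lower in KO cells (0.553 against 1.30 on average), and the genotypes overlap in the other panels.

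Zscan4d shares most of its sequence with other genes of its cluster, which bears on what its values count. Zscan4d lies on chromosome 7 (GRCm38, 11161374 to 11166159, minus strand in GENCODE M21). Its coding sequence of 1518 bases was 97.7% identical to those of Zscan4c and Zscan4f (35 mismatches each), 96.8% to that of Zscan4e and 96.6% to that of Zscan4b. Of its 1491 windows of 28 bases, 965 (64.7%) also occurred in another protein-coding transcript, all of the Zscan4 cluster. The other Zscan4 genes were not analysed here, and the sources used here do not give how reads with several matches were counted. The values of Zscan4d may therefore hold reads of its relatives, and are uncertain as values of 1 gene. The stretch with most differences among the coding sequences of equal length is shown to make this visible, from coding base 1033 to 1092, with capitals at the 6 places where the genes differ.
Zscan4d: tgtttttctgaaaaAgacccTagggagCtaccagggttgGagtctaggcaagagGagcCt
Zscan4c: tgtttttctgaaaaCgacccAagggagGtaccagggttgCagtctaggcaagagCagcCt
Zscan4f: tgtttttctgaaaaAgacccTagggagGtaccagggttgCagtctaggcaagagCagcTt
For Stra8 and Sox11 only 2.0% and 2.07% of such windows occurred elsewhere (for Sox11 in Sox1, Sox4 and Sox21), and for Trh none of 741 did.

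The starts of the genes were searched in the 250 bases upstream of the RefSeq start (GRCm38.p6) for AGGTCA, the half-site of nuclear receptors such as those of retinoic acid and thyroid hormone, for the TATA box TATAAA, for the E-box CACGTG and for CCAAT, each on both strands. All 4 genes matched an entry. AGGTCA occurred 2 times before Stra8, 1 time each before Zscan4d and Trh and not before Sox11, and 14.0% of 32851 promoters of that length held it. TATAAA occurred before Zscan4d only, and in 12.4% of all promoters. CACGTG occurred before none of the genes, and in 6.02% of all promoters. CCAAT occurred 4 times before Stra8, 1 time each before Zscan4d and Sox11 and not before Trh, and in 33.9% of all promoters. The sites before Stra8 and Trh are printed because the retinoic acid and thyroid hormone pathways are the best known regulators of these genes, with the match in capitals, as read along the strand of the gene (the Trh match lies on the opposite strand). A match of letters is no evidence of binding, and no library here measured it.
Stra8, 194 bases before the start, chr6:34920742-34920771, plus strand: gatggggtgaaaAGGTCAtcttgctccttc
Stra8, 38 bases before the start, chr6:34920898-34920927, plus strand: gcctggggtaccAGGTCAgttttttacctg
Trh, 57 bases before the start, chr6:92244690-92244719, minus strand: ccccctccccgcTGACCTcacaggcgccgc
The longest GENCODE model of Stra8 (chromosome 6, 34920163 to 34939344, plus strand) begins before the first of these sites, so that both lie in an exon of that model. Trh lies on the same chromosome (92242061 to 92244650, minus strand), and Sox11 on chromosome 12 (27334264 to 27342574, minus strand).

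No gene beside Stra8 passed the test. Of 10 listed genes within 1 Mb, 0 passed in input by limma (background 0.34%), and their median change was -0.00, with a range of -0.15 to 0.41. The nearest, Wdr91, lies 9.29 kb away and had 68.4 and 73.9 in KO cells, against 73.0 and 69.5 in control cells. The highest, the actin-binding gene Cald1, changed by 0.41 (adjusted p = 0.142, limma). Of 11 genes tested within 1 Mb of Trh none passed either, with a median of 0.05, and the nearest, Rbsn, had 0.17. Zscan4d had 1 listed neighbour, Zik1, with -0.10, and Sox11 had none.

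Among the other 7945 genes tested in input, those nearest to each of the 4 in pattern were found by the root mean square difference of centred log2 values over the 4 input libraries. With so few libraries this mainly matches the size of the genotype difference. Nearest to Stra8 were Eif2b3, a subunit of the translation initiation factor eIF2B (0.09), and the basement membrane collagens Col4a1 (0.10) and Col4a2 (0.11). Nearest to Zscan4d were the glycine cleavage enzyme Gldc (0.12), the histone gene Hist1h3d (0.12) and Irf2bp1 (0.13). Sox11 was closest to the histone variant H2afx (0.05), the DNA repair kinase Prkdc (0.06) and Trh (0.07). Trh was closest to the secreted matrix protein Tgfbi (0.04), Ifitm2 (0.05) and H2afx (0.05). The distances are in log2 units.

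The meiotic programme was described without Stra8. Of 48 genes of meiotic entry and prophase, 17 were in the table and 16 were tested in input, of which 0 passed by limma, edgeR or DESeq2 (5 at an unadjusted p under 0.05, as had 1012 of the 7946 genes). Leaving out control input replicate 2, which raised the calls over all genes to 599, gave 3 calls, and the other libraries 1 each. Their median input change was 0.04, against 0.00 over all genes tested, and their range was -0.13 to 0.46. Those with the highest input values were Sgo2a, a protector of centromeric cohesion, with 444 in KO cells and 438 in control cells, the nuclear envelope gene Sun1 with 399 in KO cells and 404 in control cells, and the meiotic cohesin subunit Stag3 with 356 in KO cells and 369 in control cells. The 5 at an unadjusted p under 0.05 in input, named after their values were seen, were all higher in KO cells. They were Rec114 (0.46), Meioc (0.38), Tex15 (0.32), Hormad1 (0.29) and Syce1 (0.20). The smallest adjusted p among them was 0.077, for Meioc (limma). Other genes of the list were lower in KO cells, down to -0.13. In RPF 0 of 14 tested genes passed by each tool (1 at an unadjusted p under 0.05). Sycp1, Sycp3, Spo11 and Prdm9 were not analysed here.

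Other germline genes of ESC cultures likewise showed no call, with 0 of 16 in input by each of the 3 tools (4 at an unadjusted p under 0.05) and a median of 0.00. The piRNA pathway gene Rnf17 had 319 in KO cells and 270 in control cells (log2 change 0.23, adjusted p = 0.218, limma), Zcwpw1 had 136 in KO cells and 120 in control cells, and the RNA helicase Mov10l1 had 119 in KO cells and 115 in control cells. Subunits of PRC1.6 and of the MAX-MGA complex gave 0 of 19 in input by each tool (2 at an unadjusted p under 0.05), with a median of 0.04. Mga itself had 1362 in KO cells and 1378 in control cells, the deacetylase Hdac2 720.3 in KO cells and 702 in control cells, and L3mbtl2 488 in KO cells and 498 in control cells. In RPF none of its 16 tested genes passed by limma or DESeq2 and 1 passed by edgeR.

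The retinoic acid pathway was represented by 8 of 26 genes, of which 0 passed in input by each tool (1 at an unadjusted p under 0.05). Their median change was 0.09. The corepressor Ncor1 had 574 in KO cells and 508 in control cells, the receptor Rarg 235 in KO cells and 226 in control cells, and the receptor partner Rxrb 82.2 in KO cells and 87.4 in control cells. Cyp26a1, Rarb and Crabp2, which respond to retinoic acid, were not analysed here.

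The 2-cell-like programme could hardly be read apart from Zscan4d. Of 40 names on its list only 3 were in the table, and 1 of the 3 passed in input (background 0.34%). This gene, the autophagy receptor Calcoco2, rose in KO cells, where Zscan4d was lower. It had 66.5 and 61.1 in KO cells, against 34.6 and 40.8 in control cells (log2 change 0.63, SE 0.10, adjusted p = 0.021, limma). Of 43 names of known regulators of the 2-cell-like state 42 were tested, and the other, Kap1, is an alias of Trim28. In input 0 passed by each tool (3 at an unadjusted p under 0.05). The corepressor Trim28 had 7597 in KO cells and 8055 in control cells, Top2a 4689 in KO cells and 4360 in control cells, and nucleolin (Ncl) 2952 and 4478 in KO cells, against 2740 and 3181 in control cells, with overlap.

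Telomere genes, listed because Zscan4 acts at telomeres, gave 0 of 23 calls in input by each tool (3 at an unadjusted p under 0.05). In RPF they gave 1 of 21 by limma (background 0.623%). The RPF level of Gar1, a protein of the H/ACA particles that include telomerase, fell in KO cells. It had RPF values of 123 and 140 in KO cells, against 425 and 485 in control cells (log2 change -1.72, SE 0.29, adjusted p = 0.010, limma). Its input values were 94.2 and 110 in KO cells, against 81.0 and 103 in control cells, and did not pass (log2 change 0.14, adjusted p = 0.620, limma). The Gar1 call was lost with reads thinned to the shallowest library (adjusted p = 0.565, limma). DESeq2 gave Gar1 no adjusted p with the filter. Without the filter, a setting added after seeing the data, it gave an adjusted p = 0.0083. With 1 control RPF library left out, 1 remained in that group, so only the size of the change is given. By limma it was -1.81 without control RPF replicate 1 and -1.62 without control RPF replicate 2.

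Of the Sox family 6 of 17 genes were in the table, and 0 of the 5 tested in input passed by any tool (1 at an unadjusted p under 0.05), with a median of -0.05. Sox2, a core pluripotency factor, had 618 in KO cells and 638 in control cells. Sox4, a SoxC factor like Sox11, had 23.6 in KO cells and 28.02 in control cells (log2 change -0.18, adjusted p = 0.521, limma), and Sox12, of the same group, had 33.5 in KO cells and 34.9 in control cells. In a list of 60 genes of the neural lineage 25 were in the table and 0 of 23 passed in input by each tool (7 at an unadjusted p under 0.05), with a median of -0.09 and a range of -0.41 to 0.27. Those with the highest input values were the neuronal gene Stmn2, with 621 in KO cells and 578 in control cells, the intermediate filament gene Vim, with 397 in KO cells and 436 in control cells, and the tubulin gene Tubb3, with 378 in KO cells and 362 in control cells. An unadjusted p under 0.05 was found for 1012 of the 7946 genes tested in input. Of the 7 in this list, named after their values were seen, Stmn3 rose (0.27) and the others fell. Those that fell were Hes6 (-0.41), Map1b (-0.34), Gap43 (-0.31), Sox1 (-0.31), Dpysl2 (-0.30) and Dpysl3 (-0.29). Other genes of the list rose without reaching that p.

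Genes that process the TRH precursor or act in TRH signalling gave 0 of 7 calls in input by each tool (1 at an unadjusted p under 0.05), with a median of -0.02. The peptidase Prep had 174 in KO cells and 194 in control cells, Pgpep1, which removes the pyroglutamate that caps TRH, 76.8 in KO cells and 78.2 in control cells, and the carboxypeptidase Cpd 57.0 in KO cells and 45.1 in control cells. The receptor Trhr was not analysed here.

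The labelled cell type was checked with its markers. Of 30 pluripotency markers 28 were in the table, with summed input of 17594 to 17960 in KO cells and 17975 to 18477 in control cells. One of them passed, Fbxo15, which fell in KO cells to 917 on average, against 1160 in control cells (log2 change -0.34, adjusted p = 0.048, limma). The median over the 28 was -0.04, with a range of -0.36 to 0.16. The 9 at an unadjusted p under 0.05 (as had 1012 of the 7946 genes tested), named after their values were seen, were all lower in KO cells. Besides Fbxo15 they were Tcl1 (-0.36), Fgf4 (-0.31), Utf1 (-0.30), Nr0b1 (-0.26), Esrrb (-0.21), Klf2 (-0.19), Sall4 (-0.19) and Gdf3 (-0.18). Leaving out control input replicate 2 gave 8 calls, and leaving out either KO input library gave 0 by limma. Formative and primed epiblast markers gave 0 of 10 calls by each tool (3 at an unadjusted p under 0.05). None of 16 names of mesoderm and primitive streak markers was in the table (Kdr and Flk1 name the same gene).

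Some markers of primitive endoderm were higher in KO cells. Of 19 markers 9 were in the table, and 3 of 8 tested passed as higher in input (background 0.239%). They were Col4a1 (0.67, adjusted p = 0.001), Col4a2 (0.70, adjusted p = 0.010) and the endocytic receptor Cubn (0.74, adjusted p = 0.017, limma). In RPF 0 of 8 passed by each tool. The median input change over the 8 was 0.28 and their range -0.10 to 0.74. In input 6 had an unadjusted p under 0.05, as had 1012 of the 7946 genes tested, and 4 were called by DESeq2. Lamc1 (-0.04) and Apoe (-0.10) were lower in KO cells and did not pass. The summed level of the 9 was 3380 to 3586 in KO cells and 3136 to 3175 in control cells. The defining factors Gata4, Gata6 and Sox17 were not analysed here. Of the trophoblast markers 1 of 4 tested passed as higher in input (background 0.239%), the imprinted gene Peg10 (0.71, adjusted p = 0.009, limma). The median of the 4 was 0.13 and their range -0.41 to 0.71, with 4 at an unadjusted p under 0.05 and 2 called by DESeq2. Of the others, the keratin gene Krt8 had 0.52 (adjusted p = 0.057), while the imprinted gene Phlda2 had -0.41 (adjusted p = 0.066) and the transcription factor gene Tfap2c -0.26 (adjusted p = 0.293, limma). Without either control input library 3 of the 4 passed, and without KO input replicate 2 it was 2. The list had summed levels of 558 to 630 in KO cells and 517 to 530 in control cells, while Cdx2 and Elf5 were not analysed here. Fibroblast markers gave 0 of 3 calls by each tool (2 at an unadjusted p under 0.05), with sums of 1181 to 1245 in KO cells and 1325 to 1428 in control cells. The part of other cell types in the input changes of Stra8, Zscan4d, Sox11 and Trh was not tested.

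**Figure D4:**
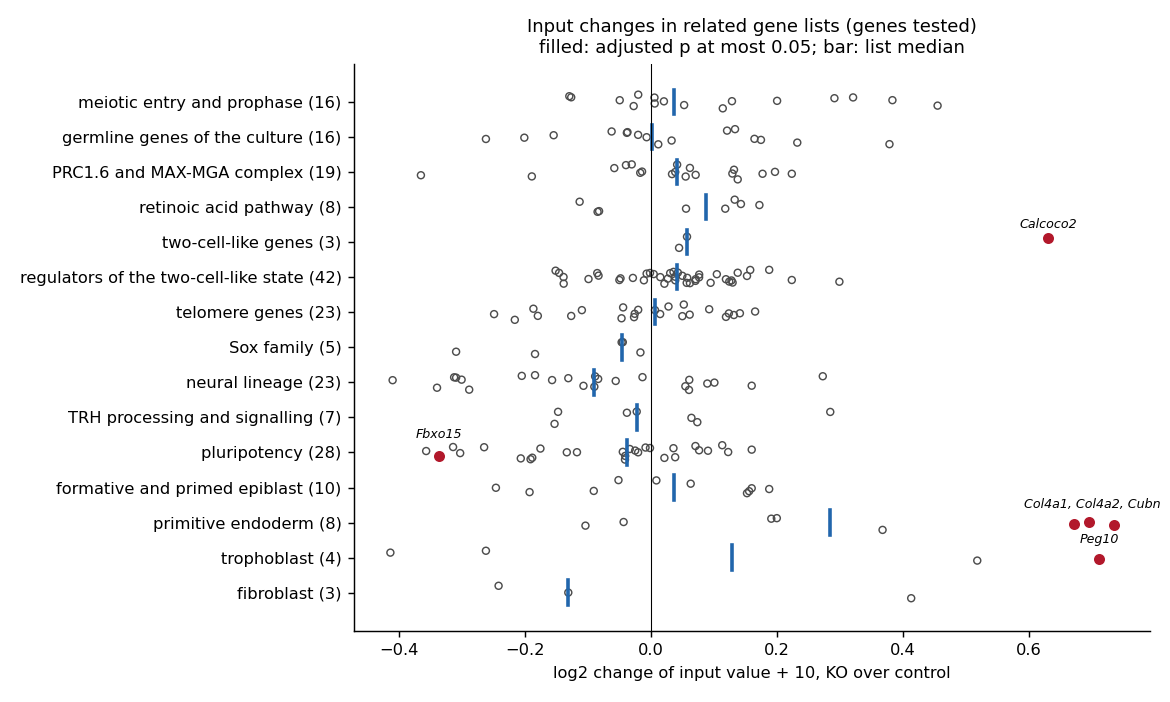
Log2 change of input, KO over control, for the tested genes of each list, with the number tested in brackets. Open circles are genes that did not pass, filled circles passed an adjusted p of 0.05, and bars are list medians. The lists around Stra8, Zscan4d, Sox11 and Trh centre near 0 with Calcoco2 as the only call, and the median of the primitive endoderm markers is 0.28.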

How the data were processed

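Ribosome profiling libraries (TruSeq Ribo Profile, rRNA depleted) of 2 genotypes were analysed. Per the study's methods, adapters were trimmed, reads were filtered on quality, rRNA and tRNA reads were removed, and the rest was aligned with Bowtie (version not given in the sources used here) to canonical known genes of mm10. The authors' deposited signal values carry the name RPKM, yet they are reads over 1 scaling factor for each library, since all values are whole multiples of a library's step within 0.02 read (100% of values), which gave back the reads. The authors' deposited log2 fold change column names no sample in its header, and its sign was set against the change of RPF over input. It entered no test, and its sign is noted in the text.

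Input and RPF were compared with limma 3.58.1 (lmFit, eBayes with trend, two-sided; R 4.3.3) on log2 of the value plus 10, separately, for genes whose mean reached 10 in input and 50 in RPF, with Benjamini-Hochberg adjustment and a threshold of 0.05. An exact test of 2 against 2 libraries cannot go below 0.333. Replicates are biological per the study, so p-values measure the spread between those cultures only. Intervals of reads are exact at 95% and cover counting error only, as reads are PCR copies. The 4 genes and all lists were chosen with earlier results of these data known, and no p is given where input chose them. Named genes were, per list, those that passed and otherwise the 3 of highest mean input, plus pattern and chromosome neighbours. Other genes given as not analysed were picked as examples. Krt8, Phlda2 and Tfap2c among the trophoblast markers were named after their values were seen. So were Lamc1 and Apoe, and the genes at an unadjusted p under 0.05 in the meiotic, neural and pluripotency lists.

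Alternatives were pseudocounts of 1 and 30, no filter, means of 100 and 200 as filters, equalised medians, edgeR 4.0.16, DESeq2 1.42.0, the replicate number as a block, thinned reads (the median of 11 draws, a number chosen after single draws were seen to vary) and each library left out. For RPF, edgeR and DESeq2 without a filter were added after seeing the data. Each tool was tested on simulated data. Positions are from GENCODE M21 (8125 of 8125 identifiers matched), coding lengths from the same (8121 genes).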

Additional observations from a re-analysis of the deposited data

How the results depend on the processing

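The input changes of Stra8, Zscan4d, Sox11 and Trh kept their direction under all settings run. The RPF changes of Stra8 and Trh stayed short of the threshold of 0.05 wherever a test gave an adjusted p. DESeq2 gave none for Stra8, which the stricter filter also left out. With 1 RPF library left out, the RPF change of Stra8 (0.49) ran from 0.04 without control replicate 1 to 0.94 without control replicate 2, with 0.14 without KO replicate 2 and 0.84 without KO replicate 1. That of Trh (-0.27) ran from -0.45 without control replicate 1 to -0.09 without control replicate 2, with -0.13 without KO replicate 2 and -0.41 without KO replicate 1, and that of Zscan4d (-0.40) from -0.77 to -0.02. The number of genes past the threshold in input, 27, became 14 with the stricter filter, 43 with DESeq2 and 69 with the replicate block, and ran from 43 to 599 with 1 library left out (599 without control replicate 2, 72 without control replicate 1, 61 without KO replicate 1). In RPF it was 39, and became 84 with the stricter filter, 90 with edgeR, 128 with edgeR and no filter (chosen after seeing the data), 126 with the replicate block, and 34 to 873 with 1 library left out (873 without KO replicate 1, 759 without KO replicate 2, 60 without control replicate 2). With reads thinned to the shallowest library it was 0 by limma, with 264 genes at an unadjusted p under 0.05, against 679 in full. The cause of these shifts was not tested. Replicate numbers do not pair the libraries, since deviations of same-numbered KO and control libraries correlated at 0.08 in input and 0.02 in RPF, so a call under the block is no evidence of a stronger effect.

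For Sox11 the RPF change of -1.44 was -2.003 with a pseudocount of 1, -0.91 with one of 30, -2.16 with edgeR and -2.14 with DESeq2 without a filter, and -1.68 to -1.20 with 1 library left out. The log2 change of RPF over input, here without a pseudocount, was 0.14 for Zscan4d, with -0.90 without replicate 1 and 1.19 without replicate 2, and 0.23 for Trh, with -0.0501 without replicate 1 and 0.50 without replicate 2. The Fbxo15 call in input was lost with the stricter filter (adjusted p = 0.069), with equalised medians (adjusted p = 0.053) and without either KO library (adjusted p = 0.120 and 0.129). Without control input replicate 2, lists without an input call gained 3 calls each for meiosis, germline, PRC1.6 and regulators of the 2-cell-like state and 4 for the neural lineage, pluripotency markers had 8 in place of 1, and fibroblast markers had 2 in place of 0 (1 without control input replicate 1). The Calcoco2 call was lost under the stricter filter, which it did not reach. Depth limits RPF most, where Zscan4d and Sox11 have 5 and 2 reads in KO cells in all.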
